A study of Mus musculus with 8 samples.

Results

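Accessible regions at the starts and ends of protein-coding genes were examined in mouse pro-B cells treated with dTAG-13, a compound directed at a tagged form of the transcription factor EBF1, or with DMSO. A region was included when its centre lay no more than 1 kb from the start or the end of a protein-coding gene span in the RefSeq annotation of GRCm38, the build of the deposited files. The rule used position only and no measured value. It took in 11278 of the 54239 distinct regions of the EBF1-dTAG_C table and 11389 of the 55193 of the EBF1-dTAG_N table. These are called boundary regions here, and the remainder of each table are called other regions. With the strand of each gene from the RefSeq promoter table, boundary regions were divided into those at a gene start only, at a gene end only, at both, and at a gene whose strand the table did not give.

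Chromatin accessibility was measured by ATAC-seq, in which the Tn5 transposase inserts sequencing adapters into open DNA, in 8 libraries of 4 groups with 2 libraries each. EBF1-dTAG_C cells were exposed for 6 h to 0.5 uM dTAG-13, and their controls to DMSO, the solvent. EBF1-dTAG_N cells were exposed for 6 h to 0.5 uM dTAG-13, and their controls to DMSO. All 4 groups are pro-B cells transformed by the Abelson murine leukaemia virus (A-MuLV), and in all of them, DMSO controls included, a modified gene stands in for endogenous EBF1. The controls are 0 h in the titles but 6 h of DMSO by their treatment label, which was followed. Whether a line is 1 clone, and whether the C and N in the names mark the end of the protein that carries the tag, is not stated in the labels. The series calls the 2 libraries of a group biological replicates. EBF1 protein was not measured here.

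EBF1 is a pioneer factor of the B lineage that binds a palindromic DNA sequence and opens chromatin at genes of the pre-B cell receptor. dTAG-13 bridges a tagged protein to a ubiquitin ligase, which sends the protein to the proteasome. Most promoters of broadly expressed genes in mammals lie in CpG islands, stretches rich in CpG dinucleotides that are accessible in nearly every cell type, whereas promoters of lineage genes are often poor in CpG and rely on lineage factors. Accessible sites at the 3' end of a gene are commonly enhancers or binding sites that happen to lie there, and gene ends are not promoters.

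Sequences at gene starts are shown for regions that fell in both lines after dTAG-13, as 300-base windows from 250 bases before to 50 after the start, from RefSeq (GRCm38.p6), 5' to 3' on the strand of the gene. EBF1 binds the core CCCNNGGG with a T before it and an A after it. Both the core and this full motif, which contains the core, are palindromes, so a match on either strand is a match on both. Capitals mark each CCCNNGGG match. The full motif was present in 0.959% and the core in 15.6% of all 21263 windows of protein-coding genes. The first set holds the 4 windows with the full motif whose regions had the smallest adjusted p among falls shared by both lines. They belong to Hip1r, an endocytic adaptor gene, Il4i1, which encodes a secreted amino acid oxidase, BC028528, and Sdc4, the syndecan 4 gene.
Hip1r, chr5:123973378-123973677, plus strand: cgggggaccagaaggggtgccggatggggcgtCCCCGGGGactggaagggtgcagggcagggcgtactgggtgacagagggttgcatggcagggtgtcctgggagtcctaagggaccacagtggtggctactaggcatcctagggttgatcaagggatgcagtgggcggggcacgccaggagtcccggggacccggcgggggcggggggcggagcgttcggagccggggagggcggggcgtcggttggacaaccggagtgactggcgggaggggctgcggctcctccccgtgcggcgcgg
Il4i1, chr7:44836038-44836337, plus strand: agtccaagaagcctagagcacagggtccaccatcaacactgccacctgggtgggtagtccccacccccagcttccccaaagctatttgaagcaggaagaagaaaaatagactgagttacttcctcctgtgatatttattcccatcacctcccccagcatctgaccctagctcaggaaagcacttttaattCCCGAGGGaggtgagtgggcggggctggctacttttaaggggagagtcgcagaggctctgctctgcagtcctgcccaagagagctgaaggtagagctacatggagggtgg
BC028528, chr3:95892013-95892312, minus strand: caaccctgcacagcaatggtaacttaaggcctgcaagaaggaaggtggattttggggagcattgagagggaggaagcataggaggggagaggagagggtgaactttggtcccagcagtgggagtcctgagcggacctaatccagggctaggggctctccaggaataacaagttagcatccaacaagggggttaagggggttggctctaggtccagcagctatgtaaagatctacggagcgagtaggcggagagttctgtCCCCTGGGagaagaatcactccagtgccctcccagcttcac
Sdc4, chr2:164443139-164443438, minus strand: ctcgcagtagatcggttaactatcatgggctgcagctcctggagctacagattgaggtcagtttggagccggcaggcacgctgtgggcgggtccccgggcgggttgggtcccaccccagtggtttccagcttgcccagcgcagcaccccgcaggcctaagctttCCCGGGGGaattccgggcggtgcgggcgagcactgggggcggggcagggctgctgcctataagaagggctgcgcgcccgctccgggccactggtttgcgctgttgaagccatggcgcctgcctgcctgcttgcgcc

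Counted from the start, with bases before it negative, the core match began at base -218 at Hip1r, -60 at Il4i1, -86 at Sdc4 and 10 at BC028528. The second set holds the falling regions of Igll1, Pou2af1 and Vpreb1, genes of the early B lineage, and, as a contrast, the window of Tfrc, the transferrin receptor gene. Tfrc had the most abundant region called in neither line among the housekeeping and proteasome genes examined.
Igll1, chr16:16863936-16864235, minus strand: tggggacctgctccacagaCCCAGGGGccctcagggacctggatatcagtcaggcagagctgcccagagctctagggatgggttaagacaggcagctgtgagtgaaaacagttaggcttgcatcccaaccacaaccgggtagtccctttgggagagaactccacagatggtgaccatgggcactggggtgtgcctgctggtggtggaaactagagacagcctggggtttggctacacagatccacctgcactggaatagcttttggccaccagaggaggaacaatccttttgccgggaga
Pou2af1, chr9:51213440-51213739, plus strand: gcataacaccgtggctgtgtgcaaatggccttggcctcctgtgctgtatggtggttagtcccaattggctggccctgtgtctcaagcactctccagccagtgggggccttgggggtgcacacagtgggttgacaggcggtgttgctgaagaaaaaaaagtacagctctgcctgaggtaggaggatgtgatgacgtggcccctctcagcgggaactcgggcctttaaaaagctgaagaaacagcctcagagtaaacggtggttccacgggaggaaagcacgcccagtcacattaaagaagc
Vpreb1, chr16:16869206-16869505, minus strand: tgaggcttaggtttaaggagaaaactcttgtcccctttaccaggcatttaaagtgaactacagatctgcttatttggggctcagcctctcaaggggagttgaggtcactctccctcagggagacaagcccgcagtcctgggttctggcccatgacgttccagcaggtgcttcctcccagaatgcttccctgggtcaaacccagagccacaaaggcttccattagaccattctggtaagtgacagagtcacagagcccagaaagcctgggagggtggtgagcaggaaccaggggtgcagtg
Tfrc, chr16:32608872-32609171, plus strand: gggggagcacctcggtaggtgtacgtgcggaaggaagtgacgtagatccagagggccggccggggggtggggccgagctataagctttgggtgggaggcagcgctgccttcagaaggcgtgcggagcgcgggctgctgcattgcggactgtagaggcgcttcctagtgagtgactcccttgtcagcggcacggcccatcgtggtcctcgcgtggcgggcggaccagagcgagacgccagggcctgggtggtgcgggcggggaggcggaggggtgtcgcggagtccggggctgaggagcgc

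Igll1 had 1 core match, at base -231, without the flanking T and A. In the windows of Pou2af1, Vpreb1 and Tfrc the letters CCCNNGGG did not occur. The ratio of observed to expected CpG dinucleotides was 0.0833 at Igll1, 0.0917 at Vpreb1, 0.137 at Il4i1, 0.187 at BC028528 and 0.356 at Pou2af1. It was 0.645 at Sdc4, 0.729 at Hip1r and 0.906 at Tfrc, so the falling starts shown include both CpG-poor and CpG-rich windows.

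The peak lists held 34202 to 39721 peaks in the 4 dTAG-13 libraries and 40166 to 42139 in the 4 DMSO libraries. Their depth in reads is unknown. Cell identity was checked by peaks within 1 kb of the ends of marker genes. Of 9 B cell markers, 8, among them Cd79a, Pax5, Vpreb1 and Ebf1, had such a peak in all 8 lists, and the recombinase gene Rag1 had it in 4. Of 6 T cell markers 1 (Cd3d, at its end) had a peak in all 8 lists and 3 had none in any list. None of 7 myeloid markers had a peak in all 8 lists and 5 had none in any. Of 6 erythroid and megakaryocyte markers 1 (Pf4, not at its start) had a peak in all 8 lists, and 4, Gata1 and Klf1 among them, had none in any.

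After dTAG-13, a smaller share of boundary regions than of other regions was called less accessible in both lines. A region was called changed at an adjusted p under 0.05 in the authors' deposited table of its line, with a negative fold change meaning less accessible after dTAG-13. In EBF1-dTAG_C, 238 of 11278 boundary regions fell (2.11%), against 3355 of 42961 other regions (7.81%), and 6.62% of the whole table fell. Rises were 11 boundary regions (0.0975%) and 156 other regions (0.363%), with 0.308% over the whole table. In EBF1-dTAG_N, 785 of 11389 boundary regions fell (6.89%), against 9405 of 43804 other regions (21.5%), and 18.5% of the whole table fell. The tables give no values per library, so this difference in share was described and not tested. The nearest test over libraries is that of boundary peaks as a share of all peaks.

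Rises in EBF1-dTAG_N depended on where 0 was set. As deposited, 3084 boundary regions rose (27.1%), against 7299 other regions (16.7%) and 18.8% of the whole table. The median log2 fold change of that whole table was 0.17, against 0.09 in EBF1-dTAG_C. With folds taken relative to these medians, 498 boundary regions rose in EBF1-dTAG_N (4.37%), against 3905 other regions (8.91%), and 1110 boundary regions fell (9.75%), against 10344 other regions (23.6%). Falls thus made up 20.3% of the calls at boundaries as deposited and 69.0% relative to the median. In EBF1-dTAG_C the same step left 284 falls and 3 rises, and 3 of the rises as deposited reached 2-fold, against 0.14% of all its regions. The median rise at a boundary in EBF1-dTAG_N was 0.30 on the log2 scale, against 0.82 in other regions, and 140 boundary rises reached 2-fold. Rises of at least 2-fold made up 5.13% of all regions of EBF1-dTAG_N. Its p-values carry pooled spread: F and p in the authors' deposited table correspond to 110386 denominator degrees of freedom, against 11.2 in EBF1-dTAG_C, so counts of calls cannot be compared between the lines.

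Falls at boundaries reached 2-fold in a smaller share than falls elsewhere. In EBF1-dTAG_C 193 of the 238 did so (81.1%), against 3131 of 3355 falls in other regions (93.3%), and 6.13% of the whole table fell by that much. In EBF1-dTAG_N it was 457 of the 785 (58.2%), against 7786 of 9405 (82.8%), with 14.9% of the whole table. These shares were described and not tested. They depended on abundance: in the most abundant quartile of the EBF1-dTAG_C table they were 59.6% at boundaries and 76.3% elsewhere. In the quartile below they were 98.9% and 99.1%. For EBF1-dTAG_N the most abundant quartile gave 31.3% and 59.4%, and the quartile below 66.7% and 78.5%. Presence of peaks gave the same order without the fold changes. In EBF1-dTAG_C 345 boundary regions (3.06%) had lost their peak, being without it in both dTAG-13 lists and with it in both DMSO lists, against 4245 other regions (9.88%) and 8.46% of the whole table. The reverse, a peak in both dTAG-13 lists and no DMSO list, held for 45 boundary regions (0.399%), against 706 other regions (1.64%) and 1.38% of the whole table. In EBF1-dTAG_N, loss of the peak was seen at 427 boundary regions (3.75%) and 5244 other regions (11.97%), 10.3% in all, and gain at 147 (1.29%) and 1801 (4.11%), 3.53% in all.

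Gene starts and gene ends differed. In EBF1-dTAG_C 110 of 7550 regions at starts only fell (1.46%), whereas 63 of 962 regions at ends only fell (6.55%), close to the 7.81% of other regions. The median log2 fold change of these falls was -1.43 at starts and -2.48 at ends in the authors' deposited table. Rises were 7 at starts and 1 at ends. Of 421 regions at both a start and an end 8 fell, and of 2345 at a gene without a given strand 57 fell. In EBF1-dTAG_N 389 of 7617 start regions fell (5.11%), against 189 of 1006 end regions (18.8%), with median falls of -0.91 and -2.16 in the authors' deposited table. Rises there were 2281 start regions (29.9%) and 131 end regions (13.02%) as deposited, and 315 (4.14%) and 63 (6.26%) relative to the median of all regions, so the order of starts and ends among rises turned with the centring.

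Falls became more frequent with distance from a gene start and did not do so from a gene end. Within 100 bp of a start, 17 of 4187 EBF1-dTAG_C regions fell (0.406%). The share was 1.54% at 100 to 250 bp, 2.74% at 250 to 500 bp, 3.57% at 500 bp to 1 kb, 6.39% at 1 to 2 kb and 8.25% at 2 to 5 kb. In EBF1-dTAG_N it was 2.17% within 100 bp of a start and 20.1% at 2 to 5 kb. Around gene ends that had no listed start within 1 kb, none of 53 EBF1-dTAG_C regions within 100 bp fell, and the share was 10.1% at 100 to 250 bp, 4.77% at 500 bp to 1 kb and 6.61% at 2 to 5 kb. In EBF1-dTAG_N, 13.6% of the 59 regions within 100 bp of an end fell, and 18.7% to 19.6% in each bin from 100 bp to 1 kb. At the limit of the rule nothing changed abruptly: 38 of 793 regions just inside 1 kb fell in EBF1-dTAG_C (4.79%, 800 to 1000 bp away) and 32 of 667 just outside (4.80%, 1000 to 1200 bp away). In EBF1-dTAG_N these shares were 16.1% and 14.8%.

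**Figure D1:**
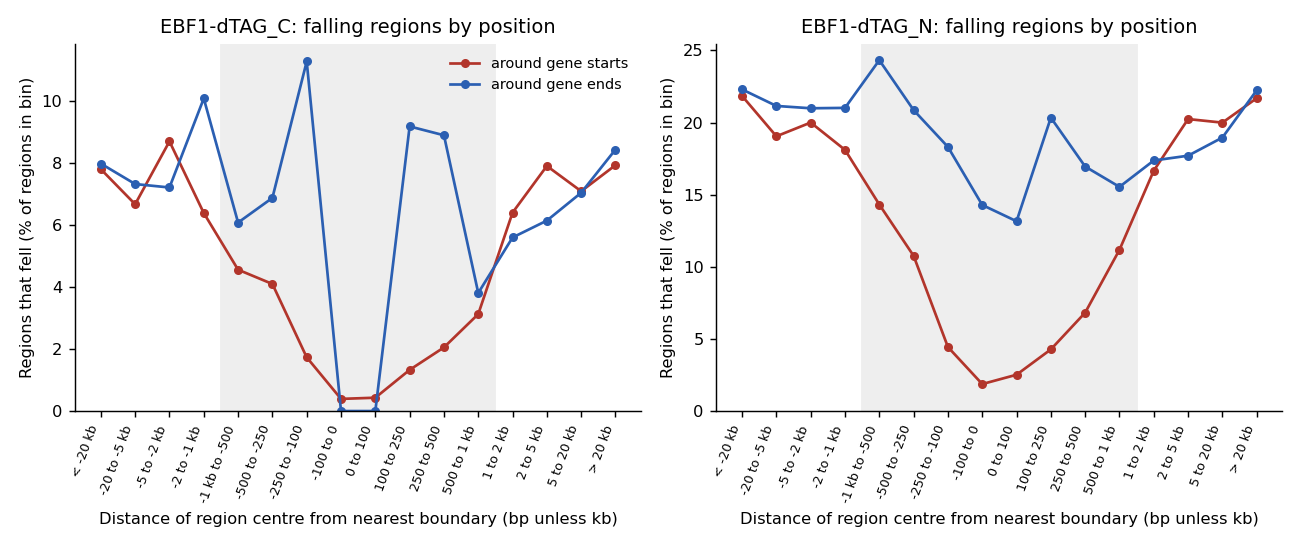
Share of regions that fell after dTAG-13 (percent of regions in each bin) against the distance of the region centre from the nearest gene start (red) or gene end (blue), negative on the 5' side, in EBF1-dTAG_C and EBF1-dTAG_N, with 1 kb either side shaded. Around starts the share is lowest within 100 bp, at 0.406% and 2.17%, while around ends it shows no such wide trough. The EBF1-dTAG_C points within 100 bp of an end rest on 19 and 33 regions.

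Some other regions also lay within 1 kb of a start in the RefSeq promoter table, namely alternative starts inside genes and starts of non-coding genes. Of 2460 such regions in EBF1-dTAG_C 102 fell (4.15%), against 3253 of 40501 regions with no listed start in reach (8.03%). In EBF1-dTAG_N these were 288 of 2488 (11.6%) and 9117 of 41316 (22.1%). They lay between annotated gene starts and the remaining regions in both lines.

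Boundary regions were also more accessible and wider than other regions. Their median mean abundance was 4.95 log2 CPM, against 1.99 for other regions in EBF1-dTAG_C, and 4.89 against 2.02 in EBF1-dTAG_N. Their median width was 395 bp, against 274 bp, and 405 bp, against 278 bp. Regions at ends only had 2.15 and 2.16 log2 CPM and widths of 270 and 273 bp, like the other regions. Within the most abundant quartile of each table the contrast between starts and other regions widened: 1.11% of 5491 start regions fell in EBF1-dTAG_C, against 14.4% of 6188 other regions. End regions in that quartile fell at 10.3% of 126. In EBF1-dTAG_N the shares were 4.10% of 5348 start regions, 33.1% of 133 end regions and 31.0% of 6636 other regions. The interquartile range of the log2 fold change in that quartile was 0.16 at starts, against 0.48 in other regions of EBF1-dTAG_C, and 0.17 against 0.87 in EBF1-dTAG_N.

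**Figure D2:**
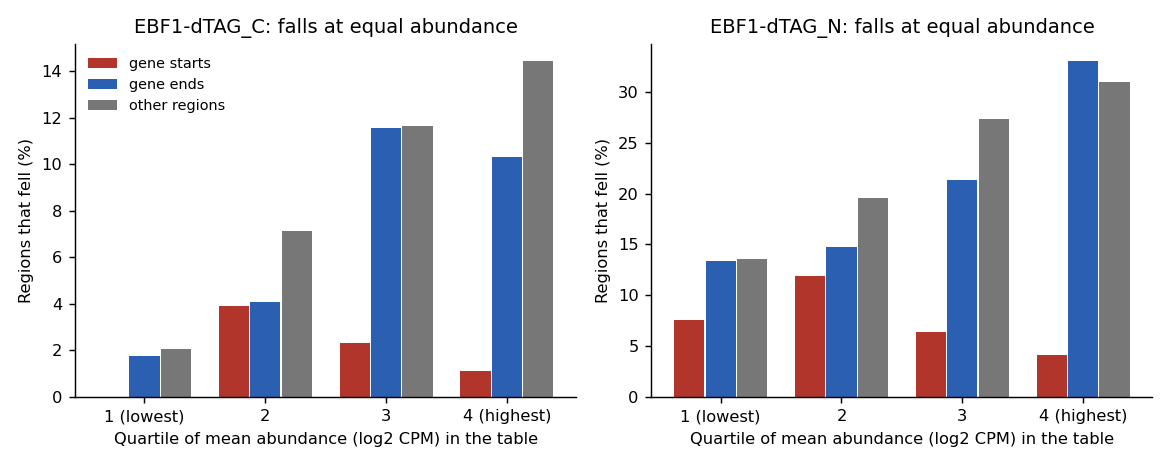
Share of regions that fell (percent) at gene starts (red), gene ends (blue) and other regions (grey) within quartiles of mean abundance (log2 CPM) of each table. In the highest quartile 1.11% of start regions, 10.3% of end regions and 14.4% of other regions fell in EBF1-dTAG_C. In EBF1-dTAG_N these shares were 4.10%, 33.1% and 31.0%.

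Width gave the same order. In the widest quartile (381 bp or more in EBF1-dTAG_C, 394 bp or more in EBF1-dTAG_N), 1.83% of 6080 boundary regions fell in EBF1-dTAG_C, against 18.1% of 7400 other regions. In EBF1-dTAG_N these were 5.84% of 6015 and 36.4% of 7768. End regions of that width fell at 16.9% of 130 in EBF1-dTAG_C, and for EBF1-dTAG_N the share was 37.2% of 148, so wide end regions sat beside other regions and not beside starts. In the narrowest quartile boundary and other regions were close in EBF1-dTAG_C, at 2.17% of 1288 and 1.92% of 12520. In the lowest quartile of abundance 7 of 580 boundary regions fell there (1.21%), against 265 of 12980 other regions (2.04%).

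A boundary shared by 2 genes was described by how the genes face each other. A region in these classes lay within 1 kb of a boundary of both genes and need not lie between them. Where the starts of 2 genes faced each other, as at a bidirectional promoter, 5 of 930 regions fell in EBF1-dTAG_C (0.538%), and 27 of 945 (2.86%) did so in EBF1-dTAG_N. Where the ends of 2 genes met, 6 of 77 fell in EBF1-dTAG_C (7.79%), and 15 of 71 (21.1%) did so in EBF1-dTAG_N. A start facing an end gave 5 of 322 (1.55%) and 18 of 326 (5.52%), and regions at 1 gene gave 216 of 9436 (2.29%) and 703 of 9545 (7.37%). Of 38 and 33 regions at 3 or more genes, none fell in EBF1-dTAG_C and 1 fell in EBF1-dTAG_N. Regions near 2 facing starts were also the more abundant, with a median of 5.75 log2 CPM, against 4.84 at 1 gene and 2.16 near 2 ends in EBF1-dTAG_C.

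The 5 falls near facing starts in EBF1-dTAG_C were at Glyr1 and Ubn1, Catsperd and Lonp1, Tctex1d4 and Btbd19, Map4k1 and Eif3k, and Haus8 and Myo9b. These pairs, and the pairs of ends that follow, were named after their values were seen, as all of a small class. Their log2 fold changes in the authors' deposited table were -1.34, -1.14, -0.79, -0.72 and -0.94. The 6 falls near 2 ends were larger in the authors' deposited table. They were -2.58 for Chchd10 and Gm867, -2.76 for Dync1h1 and 1700001K19Rik and -2.63 for Gpha2 and Ppp2r5b. The others were -1.99 for Mybpc3 and Madd, -3.10 for Gchfr and Dnajc17 and -3.16 for Cd37 and Tead2. At 5 of these 6, all but Mybpc3 and Madd, the peak was missing from both dTAG-13 lists and present with DMSO in both. All 6 pairs of ends also fell in EBF1-dTAG_N, with log2 fold changes of -4.23 to -2.07 in the authors' deposited table.

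Falls were also counted per gene. In EBF1-dTAG_C 119 of 7833 genes with a start region had a falling one (1.52%), and 78 of 1455 genes with an end region had a falling one (5.36%). Of 937 genes with both, 49 had a falling end and 6 of these (12.2%) also had a falling start, against 21 of all 937 (2.24%). In EBF1-dTAG_N the numbers were 423 of 7804 genes (5.42%) and 233 of 1471 (15.8%), and 22 of the 135 genes with a falling end (16.3%) also had a falling start, against 63 of all 921 genes with both (6.84%). Most falling ends thus had no falling start, while falling starts made up a larger share there than among all genes with both. This overlap was described and not tested. In short genes a single region can count as both start and end.

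Peak numbers per library allowed a test over samples. At boundaries, the EBF1-dTAG_C lists held 9627 and 9698 peaks after dTAG-13, against 10215 and 10230 with DMSO. In EBF1-dTAG_N they held 9872 and 10099 after dTAG-13, against 10406 and 10237 with DMSO. In each line both dTAG-13 values were under both DMSO values, with mean differences of -5.48% and -3.26%. Outside boundaries the difference was -20.7% and -9.05%. Exact permutation tests, two-sided, gave p = 0.333 for each line and p = 0.0556 when the lines were combined, which with 36 arrangements are the smallest values this design can reach. The whole lists were shorter after dTAG-13 as well, and when each list of a line was trimmed to the same number of best peaks, the boundary count was instead higher after dTAG-13, by 112 peaks in EBF1-dTAG_C and 106.5 in EBF1-dTAG_N. In lists of a fixed length the boundary count can only follow the share of boundary peaks. The trimmed lists therefore cannot show whether boundary peaks as such were fewer.

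As a share of all peaks, boundary peaks made up 28.0% and 28.4% after dTAG-13, against 25.3% and 24.3% with DMSO, in EBF1-dTAG_C (28.2 ± 0.251 and 24.8 ± 0.695, SD, n = 2 each; exact permutation p = 0.333). In EBF1-dTAG_N they made up 27.5% and 25.4% after dTAG-13, against 25.01% and 25.5% with DMSO, so the groups overlapped (exact permutation p = 0.667, and p = 0.111 over both lines). The EBF1-dTAG_N difference of 1.23 percentage points was 0.178 with dTAG-13 replicate 1 left out and 2.29 with dTAG-13 replicate 2 left out. The groups did not overlap in EBF1-dTAG_C, and the difference between the lines was not tested.

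Peaks at gene starts and at gene ends were then counted apart. Start peaks numbered 6747 and 6796 after dTAG-13, against 7021 and 7027 with DMSO, in EBF1-dTAG_C, and 6875 and 7005 after dTAG-13, against 7137 and 7065 with DMSO, in EBF1-dTAG_N. End peaks numbered 547 and 564 after dTAG-13, against 693 and 722 with DMSO, in EBF1-dTAG_C, and 612 and 648 after dTAG-13, against 745 and 720 with DMSO, in EBF1-dTAG_N. Both dTAG-13 libraries were below both DMSO libraries in each line for either kind of peak. Per 100 start peaks there were 8.11 and 8.30 end peaks after dTAG-13, against 9.87 and 10.3 with DMSO, in EBF1-dTAG_C (8.20 ± 0.136 and 10.1 ± 0.286, SD, n = 2 each). In EBF1-dTAG_N there were 8.90 and 9.25 after dTAG-13, against 10.4 and 10.2 with DMSO (9.08 ± 0.247 and 10.3 ± 0.175, SD, n = 2 each). Exact permutation p was 0.333 within each line and 0.0556 over both, the smallest possible, and this ratio was chosen after the region tables had been seen. With equal numbers of best peaks it was still lower after dTAG-13, with differences of -0.533 in EBF1-dTAG_C and -0.401 in EBF1-dTAG_N.

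**Figure D3:**
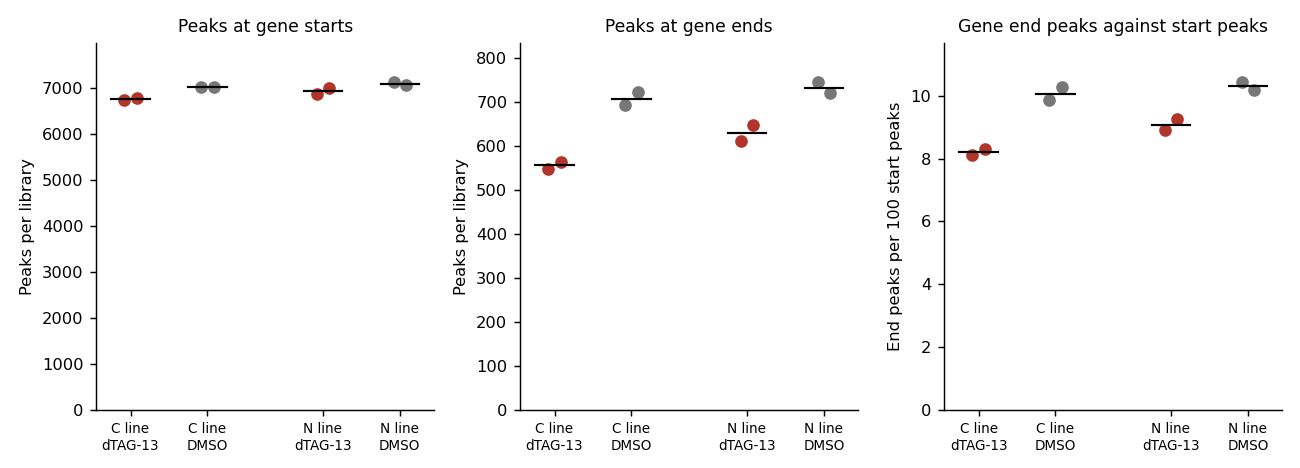
Peaks per library at gene starts, at gene ends, and end peaks per 100 start peaks, for dTAG-13 (red) and DMSO (grey) libraries of the C line (EBF1-dTAG_C) and the N line (EBF1-dTAG_N), with the group mean as a bar. In each panel both dTAG-13 libraries lie below both DMSO libraries of their line.

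The surrogate light chain genes of the pre-B cell receptor fell in both lines. Fold enrichments given here are the authors' values from each library's peak list, the highest among peaks that overlap the region, and serve to describe. Igll1, which encodes lambda 5, had a region centred 137 bp outside the gene (chromosome 16, 16863837 to 16864407) with enrichments of 4.04 and 5.68 after dTAG-13, against 18.6 and 17.1 with DMSO, in EBF1-dTAG_C. In EBF1-dTAG_N they were 7.09 and 7.01 after dTAG-13, against 19.8 and 18.7 with DMSO. All dTAG-13 libraries were below all DMSO libraries, and the authors' deposited tables gave log2 fold changes of -2.92 (edgeR, adjusted p = 4.01e-06) and -3.05. Vpreb2, a VpreB gene, had 7.37 and 5.42 after dTAG-13, against 18.6 and 20.3 with DMSO, in EBF1-dTAG_C, and a log2 fold change of -2.76 (adjusted p = 4.79e-06, authors' deposited table). Its EBF1-dTAG_N fold change was -2.29 in the authors' deposited table. Vpreb1, the other VpreB gene, had 7.43 and 5.95 after dTAG-13, against 8.78 and 8.31 with DMSO, in EBF1-dTAG_C, and -1.25 and -1.47 in the authors' deposited tables. The Vpreb1 and Vpreb2 regions lay within 1 kb of both ends of these short genes.

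Genes of pre-B cell receptor signalling followed. Pik3ap1, an adaptor that links the receptor to phosphoinositide 3-kinase, had a start region with enrichments of 8.34 and 6.42 after dTAG-13, against 20.3 and 20.6 with DMSO, in EBF1-dTAG_C. In EBF1-dTAG_N these were 10.2 and 10.6 after dTAG-13, against 21.9 and 20.8 with DMSO. The groups did not overlap, and the log2 fold changes were -1.42 and -1.40 in the authors' deposited tables. Plcg2, the phospholipase C gamma 2 gene, had a region 986 bp inside its start that lost its peak in 1 of 2 dTAG-13 lists of EBF1-dTAG_C, with -1.93 and -2.42 in the authors' deposited tables. Vav1, a guanine nucleotide exchange factor gene, had a weak region 919 bp inside its start, with a peak in 1 of the 4 EBF1-dTAG_C lists (DMSO, enrichment 3.53) and -1.31 and -1.42 in the authors' deposited tables.

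The receptor components and cofactors fell by less. Pou2af1, a B cell coactivator of octamer factors, had a wide start region with enrichments of 14.4 and 14.4 after dTAG-13, against 16.7 and 15.7 with DMSO, in EBF1-dTAG_C, and -0.82 and -0.44 in the authors' deposited tables of the C and N lines. Cd79a, which encodes the signalling chain Ig alpha, had -0.58 and -0.19 at its start in the authors' deposited tables (adjusted p = 0.0143 and 0.0410). Cd79b, the Ig beta gene, had -0.98 and -0.88 at a boundary without a given strand in the authors' deposited tables. Pax5, a master regulator of B cell identity, was called in neither line within 1 kb, with 0.08 and 0.22 at its main start region in the authors' deposited tables. With the limit at 2 kb it had a falling region in EBF1-dTAG_N. Blnk, the adaptor that follows the kinase Syk, was also called in neither line within 1 kb, with 0.09 and 0.18 in the authors' deposited tables.

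Starts outside the B cell receptor pathway included some of the deepest falls. Ell3, a member of the ELL family of elongation factors, had a region 640 bp inside its start with no peak in any dTAG-13 list of either line. With DMSO its enrichments were 21.9 and 23.0 in EBF1-dTAG_C, while EBF1-dTAG_N had 17.99 and 16.4, and the log2 fold changes were -4.53 and -4.61 in the authors' deposited tables. Btnl1, a butyrophilin-like gene, had none in the dTAG-13 lists of either line, against 9.43 and 11.4 with DMSO in EBF1-dTAG_C, and -3.45 and -3.05 in the authors' deposited tables. Zc3h12d, of the regnase family of RNases, had none either, against 6.87 and 5.11 with DMSO in EBF1-dTAG_C, and -4.04 and -4.48 in the authors' deposited tables. The Zc3h12d region was of low abundance in EBF1-dTAG_C, at 1.32 log2 CPM, against 3.04 in EBF1-dTAG_N. Hip1r and Il4i1, whose sequences are shown, had -1.69 and -1.80 in the authors' deposited table of EBF1-dTAG_C, and -1.74 and -2.66 in that of EBF1-dTAG_N. The falls of all these starts kept their direction in both lines.

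Gene ends held the falling boundary regions with the smallest p. Hnrnpl, an RNA-binding protein gene, had a region 785 bp inside its end (chromosome 7, 28821166 to 28821800) with enrichments of 5.29 and 6.17 after dTAG-13, against 20.5 and 20.7 with DMSO, in EBF1-dTAG_C. In EBF1-dTAG_N these were 5.28 and 5.23 after dTAG-13, against 19.4 and 16.2 with DMSO. The authors' deposited tables gave -3.23 (edgeR, adjusted p = 8.63e-07) and -3.68. Zdhhc7, a palmitoyltransferase gene, had a region 360 bp inside its end (chromosome 8, 120081143 to 120081759) with no dTAG-13 peak, against 19.3 and 21.9 with DMSO, in EBF1-dTAG_C. In EBF1-dTAG_N it had 6.34 and 4.97 after dTAG-13, against 21.5 and 22.7 with DMSO, and the fold changes were -4.22 and -4.25 in the authors' deposited tables. Every dTAG-13 library was below every DMSO library at both ends.

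Further ends fell in both lines. Mief2, a gene of mitochondrial dynamics, had no dTAG-13 peak in either line, against DMSO values of 19.6 and 15.8 for EBF1-dTAG_C, and 23.1 and 21.1 for EBF1-dTAG_N, with -3.97 and -4.56 in the authors' deposited tables. Bmf, which encodes a BH3-only promoter of apoptosis, also had none, against DMSO values of 10.3 and 14.2 for EBF1-dTAG_C, and 20.5 and 25.7 for EBF1-dTAG_N, with -2.90 and -4.67 in the authors' deposited tables. Fetub, the fetuin B gene, had -3.18 and -3.31 in the authors' deposited tables. Pik3r5, a regulatory subunit gene of phosphoinositide 3-kinase gamma, had -2.55 and -2.89 at a region 940 bp outside its end in the authors' deposited tables. She, an SH2 domain adaptor gene, had -3.87 and -4.84 in the authors' deposited tables. The last was of low abundance, at 2.02 and 2.297 log2 CPM.

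Some regulators of the B lineage were called at their ends, and of these Ebf1 was not called at its start. Ebf1 itself had a region 129 bp outside its end (chromosome 11, 45008022 to 45008428) with enrichments of 8.54 and 8.18 after dTAG-13, against 22.8 and 22.7 with DMSO, in EBF1-dTAG_C. In EBF1-dTAG_N these were 20.2 and 17.9 after dTAG-13, against 26.4 and 22.9 with DMSO. The groups did not overlap in either line, and the log2 fold changes were -1.02 (edgeR, adjusted p = 0.0250) and -0.81 in the authors' deposited tables. The regions 819 bp outside and 283 bp inside the Ebf1 start were called in neither line, with -0.06 and 0.22 in EBF1-dTAG_C in the authors' deposited table. The cells carry a modified EBF1 gene, and its part in the values at this locus was not tested.

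Irf8, a transcription factor gene of B and myeloid cells, had a region 810 bp outside its end with no peak and 7.09 in the dTAG-13 lists, against 11.49 and 11.1 in the DMSO lists, of EBF1-dTAG_C. It fell in both lines, with log2 fold changes of -1.43 and -1.88 in the authors' deposited tables, while another Irf8 boundary region rose in EBF1-dTAG_N as deposited. Irf4, a related factor gene, had an end region at 1.06 in EBF1-dTAG_N (0.90 relative to the median) and at 0.63, not called, in EBF1-dTAG_C in the authors' deposited tables. At the end of Vpreb3, a VpreB-related gene, the enrichments overlapped between groups, at 13.5 and 13.2 after dTAG-13, against 14.8 and 12.9 with DMSO, in EBF1-dTAG_C. The authors' deposited tables nevertheless gave -1.22 and -1.52 for that region, so enrichment at the highest peak and the region's fold change need not move together.

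Rises were few in EBF1-dTAG_C, and most were small. Slc44a2, a choline transporter-like gene, had a region 961 bp inside its start with enrichments of 18.4 and 23.6 after dTAG-13, against 16.2 and 14.8 with DMSO, in EBF1-dTAG_C. In EBF1-dTAG_N these were 19.1 and 18.1 after dTAG-13, against 13.2 and 14.1 with DMSO, and the fold changes were 0.60 and 0.72 in the authors' deposited tables. Pglyrp2, a peptidoglycan recognition gene, had 19.7 and 18.9 after dTAG-13, against 14.5 and 16.5 with DMSO, in EBF1-dTAG_C, and 0.74 and 1.06 in the authors' deposited tables. Neither gene's groups overlapped in EBF1-dTAG_C.

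Soat2, a sterol acyltransferase gene, had peaks of 9.66 and 5.96 after dTAG-13 and none with DMSO in EBF1-dTAG_C, with 2.12 and 1.69 in the authors' deposited tables. Its region was of low abundance, at 1.65 log2 CPM in EBF1-dTAG_C and 0.75 in EBF1-dTAG_N. Anxa1, the annexin A1 gene, and Rasal3, a Ras GTPase-activating gene, had 0.99 and 0.65 in the authors' deposited table of EBF1-dTAG_C, and 0.91 and 0.68 in that of EBF1-dTAG_N. The enrichments of Anxa1 overlapped between groups in EBF1-dTAG_C. Relative to the median of all regions, Soat2, Slc44a2 and the cathepsin gene Ctse remained called among the 10 rises named in EBF1-dTAG_C, and the other 7 (Tbl2, Ccdc114, Tirap, Slc17a4, Pglyrp2, Rasal3 and Anxa1) had adjusted p of 0.0576 to 0.116.

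In EBF1-dTAG_N the 8 rises of smallest p were at Socs1, P2ry14, Mgat1, Zfp13, Lat with Spns1, Ptov1, Sypl and Klf13, and all 8 remained called relative to the median. Socs1, the suppressor of cytokine signalling 1, had enrichments of 12.4 and 14.7 after dTAG-13, against 11.2 and 11.6 with DMSO, and 0.43 in the authors' deposited table, or 0.27 relative to the median. The end region of P2ry14, a nucleotide sugar receptor gene, had peaks of 6.02 and 10.5 after dTAG-13 and none with DMSO, and 2.06 in the authors' deposited table, or 1.89 relative to the median. The region shared by Lat, a signalling adaptor gene best known from T cells, and Spns1 had 0.77, or 0.60 relative to the median, and Zfp13, a zinc finger gene, had 0.76, or 0.59, in the authors' deposited table. Enrichments after dTAG-13 were also above those with DMSO at Zfp13, Lat with Spns1 and Ptov1, and the groups overlapped at Sypl and Klf13. At Mgat1 they went the other way, at 16.4 and 17.4 after dTAG-13, against 18.7 and 18.1 with DMSO. None of these 8 regions was called in EBF1-dTAG_C, where P2ry14 had 1.31 (edgeR, adjusted p = 0.127) and Socs1 0.11 in the authors' deposited table. There P2ry14 also had a peak in a DMSO list, with an enrichment of 11.6.

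Genes were then grouped by lists. In EBF1-dTAG_C 10307 of 21887 protein-coding genes had a boundary region, and 250 of them (2.43%) had a falling one. Most of these 250 stand in none of the lists used here. Of 25 measured B lineage targets of EBF1, 11 had a falling region, among them Cd79a, Igll1, Vpreb1, Pou2af1, Ebf1, Ms4a1 and Ceacam1, and none had a rising one. Ms4a1, the CD20 gene, had -1.26 and Ceacam1, an adhesion gene, -0.80 in the authors' deposited table. The median log2 fold change over the 37 regions of that list was -0.29, against 0.08 over all boundary regions and 0.09 over the whole table. Of 20 genes of pre-B cell receptor signalling 7 had a falling region, with a median of -0.15 over 39 regions, and some genes, such as Cd79a and Igll1, stand in both lists. Of 20 B lineage transcription factors 2, Ebf1 and Irf8, had one, with a median of 0.08.

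Lists of broadly used genes were too short in EBF1-dTAG_C for their counts of 0 or 1 falls to be set apart from the 2.43% of all genes. None of 17 proliferation and survival genes and none of 14 housekeeping genes had a falling region, with medians of 0.02 and 0.03. Of 24 proteasome subunits 1 had a falling region, Psma6 at its end (-1.69 and -1.81 in the authors' deposited tables), and of 24 translation initiation factors 1, Eif3k. The Eif3k region lay within 1 kb of the facing starts of Eif3k and Map4k1, a kinase gene of lymphocyte receptor signalling. Its centre was 665 bp inside the nearer gene, Map4k1. It had enrichments of 22.4 and 22.7 after dTAG-13, against 25.99 and 26.4 with DMSO, and -0.72 in the authors' deposited table. Among markers of other lineages, none of 7 T and innate lymphoid, 3 myeloid and 4 erythroid or megakaryocyte genes with a boundary region had a falling or rising one, a count too small to set against the 2.43% falling and 0.107% rising of all genes.

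In EBF1-dTAG_N 806 of 10285 genes (7.84%) had a falling boundary region and 3447 (33.5%) a rising one as deposited, or 5.26% a rising one relative to the median. Falls were found at 15 of 27 B lineage targets, 11 of 21 genes of pre-B cell receptor signalling and 5 of 20 B lineage transcription factors (Ebf1, Tcf4, Spib, Irf8 and Lef1). Falls were found at none of 17 proliferation genes, 1 of 14 housekeeping genes (Hprt), 1 of 24 proteasome subunits (Psma6) and 1 of 24 translation initiation factors (Eif3k). Relative to the median, falls were at 15, 12, 5, 1, 1, 2 and 1 genes in the order of these 7 lists, against 11.2% of all genes. Rises as deposited were 5, 3, 6, 9, 4, 11 and 11 genes in the same order, and relative to the median 1, 1, 2, 1, 1, 0 and 2 genes. Medians were -0.19 for the targets and -0.09 for the signalling genes, against 0.18 over all boundary regions, and 0.16 to 0.23 for the other 5 lists. Among 6 T and innate lymphoid, 2 myeloid and 4 erythroid or megakaryocyte markers with a boundary region, Id2 and Tfr2 had a falling one. Id2, Cd3d, the Fc receptor gene Fcgr3 and Pf4 had a rising one as deposited, and relative to the median Id2 lost its rise. The Tfr2 region was shared with Actl6b and had a peak in DMSO replicate 1 only. These lists are too short to set against the shares of all genes.

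Most boundary falls of EBF1-dTAG_C recurred in EBF1-dTAG_N. Of the 238, 233 overlapped a region of the other table, all 233 had a negative fold change there and 232 were called (97.5% of the 238). Of the 785 falls of EBF1-dTAG_N, 605 overlapped a region of EBF1-dTAG_C and 229 fell there too (29.2% of the 785). Other regions were close to this, with 3212 of their 3355 EBF1-dTAG_C falls called in EBF1-dTAG_N (95.7%). As a share of overlapping regions, 2.21% of boundary regions fell in both lines, against 9.84% of other regions and 7.98% of all. Of the 11 rises 9 had an overlapping region and 8 rose in both lines (72.7%), against 123 of 156 in other regions (78.8%). Those 8 were 0.0763% of overlapping boundary regions, where 0.304% of all overlapping regions rose in both lines. No boundary region was called in opposite directions. Across 10489 overlapping pairs of boundary regions the log2 fold changes had a Pearson correlation of 0.79, with 0.74 over 7160 start regions and 0.84 over 775 end regions. This is a description across regions, which share libraries and are not independent.

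**Figure D4:**
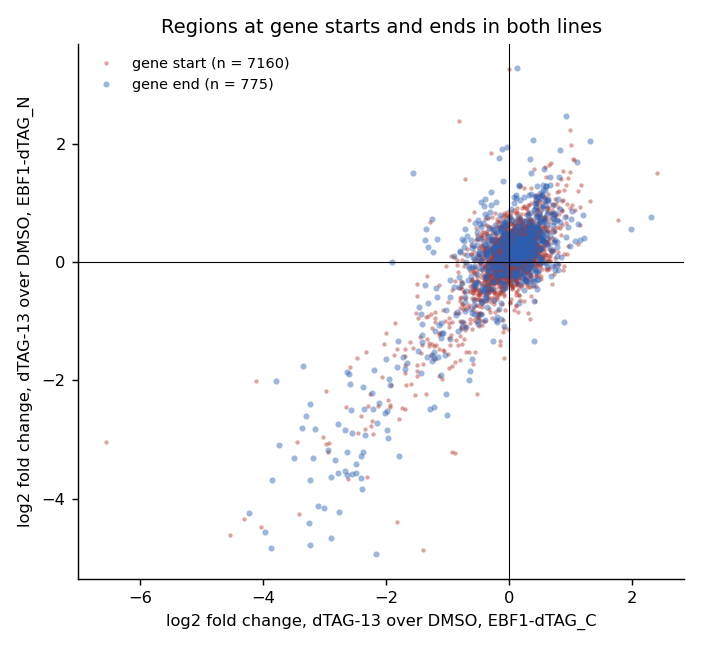
Log2 fold change, dTAG-13 over DMSO, of boundary regions in EBF1-dTAG_C (horizontal) and EBF1-dTAG_N (vertical), from the authors' deposited tables, for 7160 gene start regions (red) and 775 gene end regions (blue). Most points lie near 0, and those below -2 in EBF1-dTAG_C are nearly all below 0 in EBF1-dTAG_N. No region was called in opposite directions. Some regions called only in EBF1-dTAG_N lie in the upper left or lower right: of its start regions with an overlapping region, 296 of 318 falls and 1940 of 2232 rises had the same sign in EBF1-dTAG_C.

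Falling starts that overlapped a promoter window differed in sequence from uncalled ones that did, a trait the choice of regions had not used. For each start region overlapping a RefSeq promoter window, the window of the nearest start was read. In EBF1-dTAG_C this gave 53 windows for 110 falling regions at starts only and 8 at both a start and an end. Most falling starts there were thus not covered. In EBF1-dTAG_N it gave 204 windows for 389 and 26 such regions. In EBF1-dTAG_C the median ratio of observed to expected CpG was 0.288 over 53 windows of falling starts (quartiles 0.152 and 0.538), against 0.806 over 6233 windows of uncalled starts (quartiles 0.661 and 0.935). A ratio under 0.6 was found in 75.5% of falling and 18.3% of uncalled windows, against 52.3% of all promoter windows of protein-coding genes, whose median was 0.567. In EBF1-dTAG_N the medians were 0.594 over 204 falling, 0.822 over 2078 rising and 0.800 over 4009 uncalled windows, and 102 of the falling ones were under 0.6. Falling starts of EBF1-dTAG_N were thus near promoters at large, and accessible uncalled starts above them. The median GC content differed less, at 57.3% for falling and 61.7% for uncalled windows in EBF1-dTAG_C. Starts with a CpG ratio under 0.6 were also less abundant, with a median of 4.61 log2 CPM, against 5.62 for the others in EBF1-dTAG_C.

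**Figure D5:**
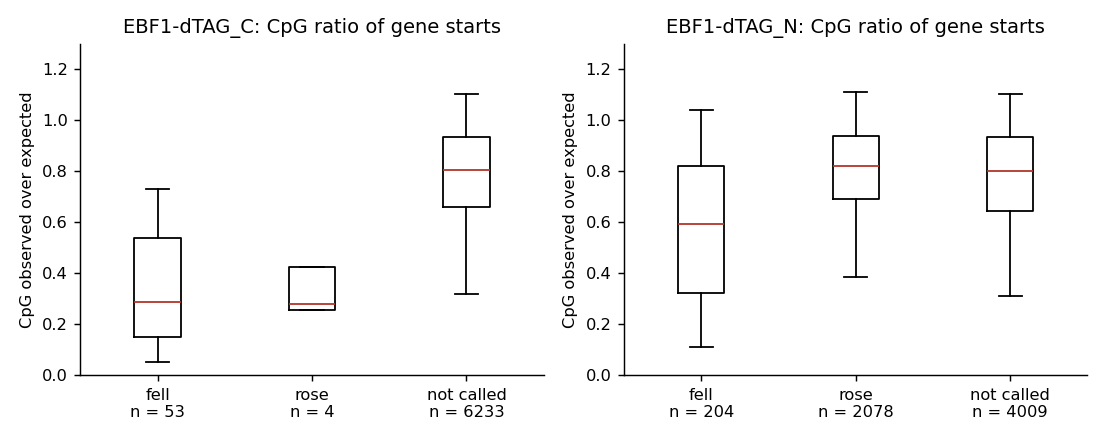
Ratio of observed to expected CpG dinucleotides in the RefSeq promoter windows of start regions that fell, rose or were not called, in EBF1-dTAG_C and EBF1-dTAG_N. Boxes span the quartiles, the red line is the median and whiskers span percentiles 5 to 95. The median of falling starts is 0.288 in EBF1-dTAG_C and 0.594 in EBF1-dTAG_N, against 0.806 and 0.800 for uncalled starts, and the EBF1-dTAG_C box of rises rests on 4 windows.

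The EBF1 motif was more frequent in the same windows. The full motif occurred in 8 of 53 falling windows in EBF1-dTAG_C (15.1%), among them the 4 printed above, against 47 of 6233 uncalled windows (0.754%) and 0.959% of all promoter windows. The core CCCNNGGG occurred in 28 falling windows (52.8%), against 17.5% of uncalled windows and 15.6% of all. In EBF1-dTAG_N the full motif occurred in 6.37% of falling, 0.385% of rising and 0.873% of uncalled windows, and the core in 43.1%, 16.8% and 17.3%. Among the windows shown, that of Igll1 held the core without the flanks, and those of Pou2af1 and Vpreb1 held neither.

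CpG ratio and core motif each went with falls within classes of the other. In EBF1-dTAG_C 17 of 188 windows with a CpG ratio under 0.6 and the core fell (9.04%), and 23 of 996 without the core (2.31%). With a ratio of 0.6 or more, 11 of 933 windows with the core fell (1.18%), and 2 of 4173 without it (0.0479%). In EBF1-dTAG_N these shares were 21.1%, 6.29%, 5.1% and 1.29%. A match of letters describes a window and shows no binding, and windows that do not reach the accessible region were not read.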

How the data were processed

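ATAC-seq was analysed from processed files of 8 libraries, grouped by line and treatment from the labels. Per the submitters' processing notes, edgeR 3.32.0, MACS2 2.2.7.1, deepTools 3.3.2, SAMtools 1.10 and Bowtie2 2.3.5.1 were involved, on GRCm38 (mm10), with no roles stated. How reads were filtered, shifted for Tn5 or scaled is not given in the sources used here. Peak lists as deposited, 1 per library, hold a score, a fold enrichment ratio and −log10 p-values and q-values for each peak. Peak names inside 2 of the EBF1-dTAG_C lists carry other replicate numbers than the titles, and the titles were followed. The authors' deposited comparison table of each line holds log2 fold changes, mean log2 CPM, an F score, p-values and adjusted p-values per region, with no value per library and therefore no standard error or n. What their filter on low values removed is not given.

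Repeated entries (8 and 12) were counted once, and coordinates were made 1-based. Gene spans of 21887 protein-coding genes came from RefSeq (GRCm38.p6), and 17492 took a strand from the RefSeq promoter table. Called means a deposited adjusted p under 0.05. For centred folds the standard error was the absolute log2 fold over the square root of F, with p-values adjusted over the whole table. Regions were paired between lines, and peaks with regions, by an overlap of at least 1 bp. Exact permutation tests, two-sided, served for peak numbers per library. The code was tested on simulated data. Genes were named by p-value rank, at most 1 region each: the 12 falls of at least 2-fold and 8 rises of each line, the 10 falls and 5 rises largest in both, and up to 4 called genes per list. Further genes were named as contrasts, and 1 gene that the rule names is not reported here. The members, gene lists and this rule were chosen with earlier results of these data known. Python 3.11.15, pandas 2.3.3, numpy 2.4.6, scipy 1.17.1 and matplotlib 3.10.9 were used. Alternatives covered the distance limit, thresholds, centring, degrees of freedom, list length, replicate pairing and each library left out.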

Additional observations from a re-analysis of the deposited data

How the results depend on the processing

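Widening or narrowing the rule scaled the counts. Boundary falls in EBF1-dTAG_C were 143 at 500 bp, 439 at 2 kb, 70 for regions that overlap a boundary and 152 at an adjusted p under 0.01, and in EBF1-dTAG_N 437, 1344 and 247 for the same 3 distances and 457 at 2-fold or more. Rises in EBF1-dTAG_C were 7, 20 and 6 at those distances, 3 at 2-fold or more, 3 under either centring and 0 at an adjusted p under 0.01. Rises in EBF1-dTAG_N were 1821 at an adjusted p under 0.01, 140 at 2-fold or more, 498 and 437 centred on all or on boundary regions, 1986 with the degrees of freedom of EBF1-dTAG_C and 243 with both (the last chosen after seeing the data). At an adjusted p under 0.01, 148 falls and 0 rises were shared by both lines. At 2 kb 14 of 29 B lineage targets had a falling region in EBF1-dTAG_C, against 3.93% of all genes. In EBF1-dTAG_N it was 21 of 28 targets and 9 of 21 B lineage transcription factors, against 11.8% of all genes. At 500 bp 1.04% of starts and 8.33% of ends fell in EBF1-dTAG_C and 3.63% of starts in EBF1-dTAG_N. With CCCNNGGG in place of the full motif, falling windows exceeded uncalled ones by 35.3 and 25.8 percentage points. With equal numbers of best peaks, where the count follows the share, the boundary peak difference turned to 112, 106.5 and, over both lines, 109.25.

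Leaving out 1 library gave differences in boundary peaks of -595.5 to -524.5 for EBF1-dTAG_C, and for EBF1-dTAG_N of -449.5 to -222.5 (-222.5 without dTAG-13 replicate 1, -251.5 without DMSO replicate 1), in share of 2.92 to 3.90 and 0.178 to 2.29 points, and in end peaks per 100 start peaks of -2.07 to -1.67 and -1.41 to -1.06. Region calls could not be recomputed with a library left out, since the tables list none singly. With the replicate block (replicate numbers as pairs, 4 pairs, exact sign-flip permutation test) the differences were -448 peaks (p = 0.125), 2.32 points (p = 0.25) and -1.55 end peaks per 100 start peaks (p = 0.125), where 0.125 is the smallest p possible. Deviations of same-numbered libraries correlated at -0.128 over 8484 regions in EBF1-dTAG_C and 0.0187 over 8715 in EBF1-dTAG_N. With 2 libraries per group this does not settle whether the numbers pair the samples. Crossing the pairs in EBF1-dTAG_C was chosen after seeing the data and gave the same values. The mean difference is the same under any pairing, so this step could not test the pairing. Of the results on single regions 124 kept their side of the threshold and 18 lost the call under centring, all of them rises. No called region changed direction. Some uncalled regions near 0 changed sign, such as that of Mcm2 in EBF1-dTAG_C, from 0.02 to -0.06.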
